A study of Homo sapiens with 6 samples.

Results

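The genes of the cytosolic ribosomal proteins were followed through the open chromatin of GM12878, a human lymphoblastoid cell line derived from B cells. The members were the autosomal protein-coding genes of the GENCODE annotation on hg19 whose symbol is RPL or RPS followed by digits and an optional A, L, X or P ending, with RPSA and RPLP0 to RPLP2, and without the RPS6K kinases. This gave 77 of 19229 autosomal protein-coding genes, 31 for the small 40S subunit and 46 for the large 60S subunit. The rule reads only the symbols and positions of genes and uses no measured value.

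The libraries are bulk ATAC-seq, in which the Tn5 transposase inserts sequencing adapters into accessible DNA. All 6 came from GM12878 cells fixed with 1% PFA, transposed for 30 min and reverse crosslinked at 65 °C overnight. They differed in how the DNA was recovered, and not in that alone. In 2 libraries the old reverse crosslinking buffer with SDS was followed by purification (SDS, purified), in 2 a buffer without SDS was followed by purification (SDS-free, purified), and in 2 the SDS-free mixture went straight into PCR (SDS-free, unpurified, the bulk form of the Pi-ATAC workflow). For the unpurified workflow the paper also gives a changed detergent concentration in the lysis buffer. It adds an EDTA quench and a spin that discarded the supernatant before reversal. The methods do not say which of these steps the SDS-free purified libraries shared. The comparison asks whether the workflows without SDS, and without purification, keep the accessible sites seen with the standard buffer, and it cannot separate these steps. The labels do not say that replicates came from separate cultures, so p-values measure only the spread between these libraries, which may be technical. All 6 libraries are from 1 cell line, so nothing here bears on other cells.

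A ribosome is built from rRNA and a fixed set of proteins, each of which is normally encoded by 1 active gene with many silent processed copies. These genes are transcribed strongly in growing cells from short promoters that begin at a cytosine within a run of pyrimidines. That run becomes the 5′ TOP motif of the mRNA, through which mTOR signalling controls its translation.

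The promoters of members with strong and with weak peaks are shown first, with and without the pyrimidine run at the start. Each sequence runs 5′ to 3′ along the gene's strand from 120 bases before the start of the canonical transcript to the first 15 bases of the transcript, in hg19. Capitals mark the pyrimidine run that begins at a cytosine exactly at the start, and any match to CCGGAAG or GGGCGG on either strand. RPSA and RPL15 had the highest mean rank of their subunits, RPS12 and RPL37 came next, RPS27 of the 40S and RPL38 and RPL32 of the 60S had the lowest mean ranks of their subunits among members with a peak in all 6 libraries, and the summit of RPS19 lay farthest upstream of its gene start. RPSA lies at chr3:39448091-39448225, plus strand, RPS12 at chr6:133135588-133135722, plus strand, RPL15 at chr3:23958503-23958637, plus strand, RPL37 at chr5:40835310-40835444, minus strand, RPS27 at chr1:153963118-153963252, plus strand, RPL38 at chr17:72199697-72199831, plus strand, RPL32 at chr3:12883050-12883184, minus strand, and RPS19 at chr19:42364205-42364339, plus strand.
RPSA: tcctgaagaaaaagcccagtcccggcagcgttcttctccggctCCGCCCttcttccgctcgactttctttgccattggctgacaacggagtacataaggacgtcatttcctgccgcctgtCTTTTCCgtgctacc
RPS12: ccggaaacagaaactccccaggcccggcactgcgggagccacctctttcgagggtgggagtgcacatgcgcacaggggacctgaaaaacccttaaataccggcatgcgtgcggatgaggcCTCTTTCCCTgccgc
RPL15: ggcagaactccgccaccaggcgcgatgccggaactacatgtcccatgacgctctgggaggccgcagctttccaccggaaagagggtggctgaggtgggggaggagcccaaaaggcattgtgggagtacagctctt
RPL37: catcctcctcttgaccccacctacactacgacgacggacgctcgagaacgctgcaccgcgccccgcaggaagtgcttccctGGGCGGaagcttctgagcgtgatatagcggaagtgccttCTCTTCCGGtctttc
RPS27: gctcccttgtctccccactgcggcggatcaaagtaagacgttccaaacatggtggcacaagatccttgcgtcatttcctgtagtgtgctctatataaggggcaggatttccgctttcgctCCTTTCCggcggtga
RPL38: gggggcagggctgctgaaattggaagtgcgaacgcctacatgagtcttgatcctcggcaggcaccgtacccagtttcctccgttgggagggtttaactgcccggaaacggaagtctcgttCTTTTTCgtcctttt
RPL32: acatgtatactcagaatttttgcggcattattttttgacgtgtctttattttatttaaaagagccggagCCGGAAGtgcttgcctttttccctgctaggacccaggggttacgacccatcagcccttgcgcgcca
RPS19: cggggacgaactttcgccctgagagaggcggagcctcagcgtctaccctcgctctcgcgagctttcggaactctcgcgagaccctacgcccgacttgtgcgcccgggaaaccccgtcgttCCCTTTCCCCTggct
The run was present at the annotated start of RPSA, RPS12 and RPL37 with strong peaks, at RPS27 and RPL38 with weak ones, and at RPS19, while RPL15, with a strong peak, and RPL32, with a weak one, had none at the annotated canonical start. In RPL32, however, a cytosine followed by 4 more pyrimidines lay a few bases after that start. Of the 77 members, 55 (71.4%) began with a cytosine followed by at least 4 more pyrimidines, against 4.53% of all 19229 promoters. In these 55 the run was 5 to 16 bases long, with a median of 8.

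The rest of the promoter was searched on both strands from 250 bases before to 50 bases after the canonical start. CCGGAAG, the core of the sites bound by ETS factors such as GABP, was found in 26 members (33.8%) and 14.1% of all promoters. AAGATGG, the core of YY1 sites, was found in 14 members (18.2%) and 6.33% of all promoters. GGGCGG, the GC box read by SP and KLF factors, was found in 46 members (59.7%) and 61.3% of all promoters. TATAAA was found in 7 members (9.09%) against 9.83%, CACGTG in 5 (6.49%) against 8.65%, and the palindromic NRF1 motif in 2 (2.60%) against 1.71%. A match is only a match of letters, and some of these letters overlap the pyrimidine run, as CCGGAAG read on the other strand does in RPL37. The median GC content was 60% in members and 63.7% over all promoters, and the median ratio of observed to expected CpG was 0.914 and 0.778.

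Most ribosomal protein genes had an accessible start in every protocol. A peak lay within 1 kb of the start of the gene record in 66 and 67 of the 77 members in the SDS libraries, 67 and 63 in the SDS-free purified libraries, and 64 and 67 in the SDS-free unpurified libraries. Over all autosomal protein-coding genes the share with a peak was 48.2% and 46.6%, 50% and 47%, and 49.7% and 49.5% in the same libraries. As a mean of 2 libraries, the share of members was 86.4% ± 0.918 (SD, n = 2) for SDS, 84.4% ± 3.67 for SDS-free purified and 85.1% ± 2.75 for SDS-free unpurified. A peak stands for the average over the cells of a library, so more open cells and more open DNA per cell cannot be told apart.

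Across libraries, 59 members (76.6%) were called in all 6, 11 in 1 to 5, and 7 in none. The same classes held 41%, 14.3% and 44.6% of all genes. By subunit, 26 of 31 members of the 40S and 33 of 46 of the 60S were called in all 6. Of the 27 members that hold a small nucleolar RNA gene, 21 were called in all 6, and of the 50 without one, 38. Of the 10 members with a coding gene that starts within 1 kb in the opposite direction, 8 were called in all 6.

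**Figure D1:**
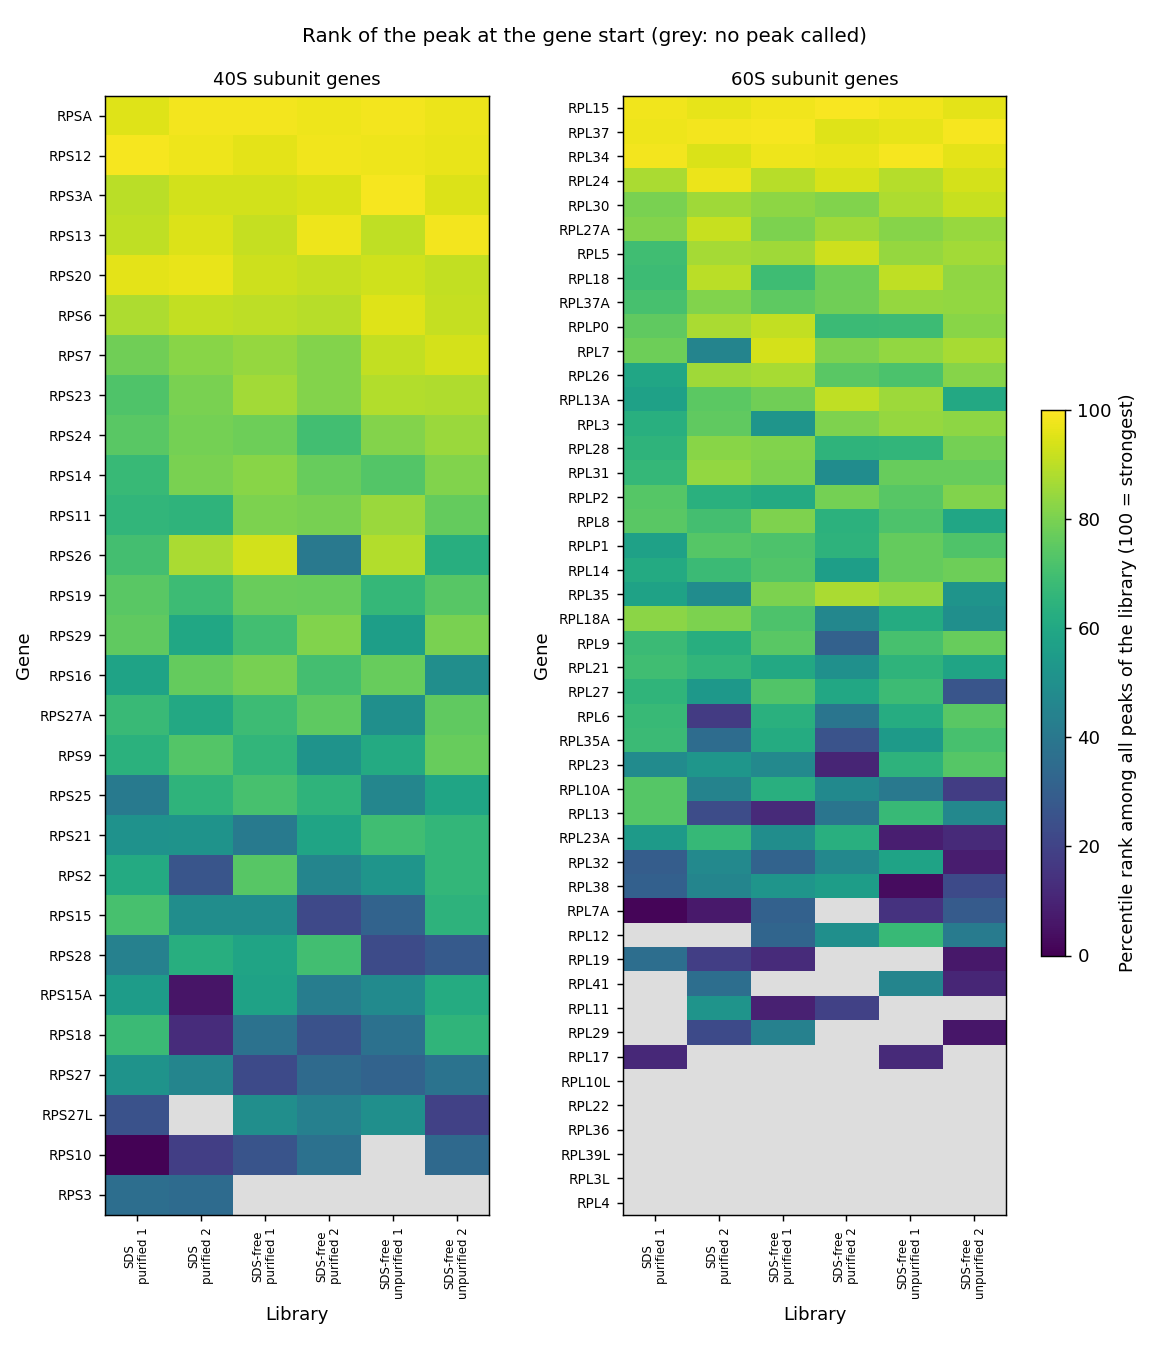
Heat map of the percentile rank of the peak at the gene start for the plotted ribosomal protein genes (rows, 40S at the left and 60S at the right) in the 6 libraries (columns), where 100 is the strongest peak of a library and grey means that no peak was called. The rows run from RPSA and RPL15, with mean ranks of 97.4 each, down to members without a peak in any library.

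**Figure D2:**
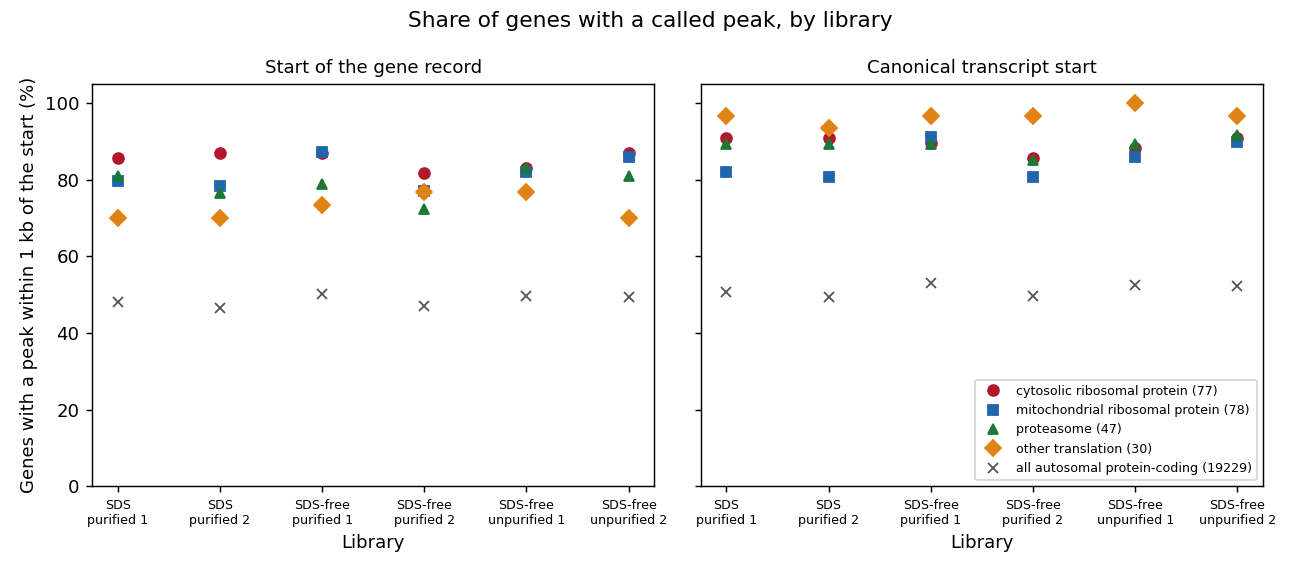
Share of genes with a peak within 1 kb (y axis, percent) in each of the 6 libraries (x axis) for the ribosomal protein genes, 3 comparison lists and all genes, at the start of the gene record (left) and at the canonical transcript start (right); each symbol is 1 library. The members lie between 81.8% and 87.0% at the left, and all genes between 46.6% and 50%.

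The share with a peak was higher in members than over all genes in 6 of 6 libraries, by a mean of 36.8 points (85.3% against 48.5%). Among genes with a peak, which were a larger share of members than of all genes, the peaks themselves did not rank higher. Ranked by −log10 q within a library, with 100 the strongest, the median member peak stood at the 68.0th to 73.8th percentile and the median peak of all genes at the 73.0th to 76.4th, lower in 6 of 6 libraries with a mean difference of −4.73. The median width was 527 to 646 bp in members and 559 to 648 bp over all genes, lower in 6 of 6 libraries with a mean difference of −23.6 bp. For each of these 3 differences the exact sign-change permutation test over the 6 libraries gave p = 0.0312, the smallest it allows, and 0.0536 after Benjamini-Hochberg adjustment over the 12 comparisons of this family, so none passed 0.05. Without genes that have another coding start nearby the rank difference was −1.21 and the width difference −14.6 bp, and at every protein-coding transcript start they were −3.04 and −8.83 bp. Counted over genes with and without a peak, 7 members (9.09%) and 7.5% of all genes were among the strongest 10% of peaks in all 6 libraries.

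Gene families of similar housekeeping character gave a closer comparison. Mitochondrial ribosomal protein genes (78), which encode the ribosome of the organelle, had a mean share of 81.6%, and members lay 3.66 points above them (exact permutation p = 0.0625, adjusted p = 0.0938, n = 6). Without genes near another coding start this difference turned to −0.129 points. Their median rank was 72.7, and members minus this list gave −2.31 (exact permutation p = 0.219, adjusted p = 0.262, n = 6). Proteasome genes (47), for the protein-degrading complex, had a mean share of 78.7%, 6.56 points below the members in 6 of 6 libraries (exact permutation p = 0.0312, adjusted p = 0.0536, n = 6), and a rank within 0.0413 of theirs (exact permutation p = 1, n = 6). The share difference was 0.387 points at the canonical start and −0.166 at every transcript start.

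A list of 30 other translation genes, with elongation factors such as EEF1A1 and EEF2 and nucleolar proteins such as NPM1 and FBL, had start peaks that ranked higher and were wider in every library, though neither difference passed 0.05 after adjustment. Its median rank was 83.4 against 70.4 in members, and its median width 699 against 591 bp, in the same direction in 6 of 6 libraries (each exact permutation p = 0.0312, adjusted p = 0.0536, n = 6). At the canonical start the ranks were 78.5 and 71.0, a difference of −7.47 instead of −13.1, and without genes near another coding start the differences were −7.61 in rank and −54.8 bp in width. The share with a peak depended on the start too: at the start of the gene record members were 12.5 points higher, and at the canonical start the difference was −7.27 points (mean 96.7% in the list). Between these starts the proteasome genes called in all 6 libraries went from 33 to 38 of 47, and members from 59 to 60 of 77.

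**Figure D3:**
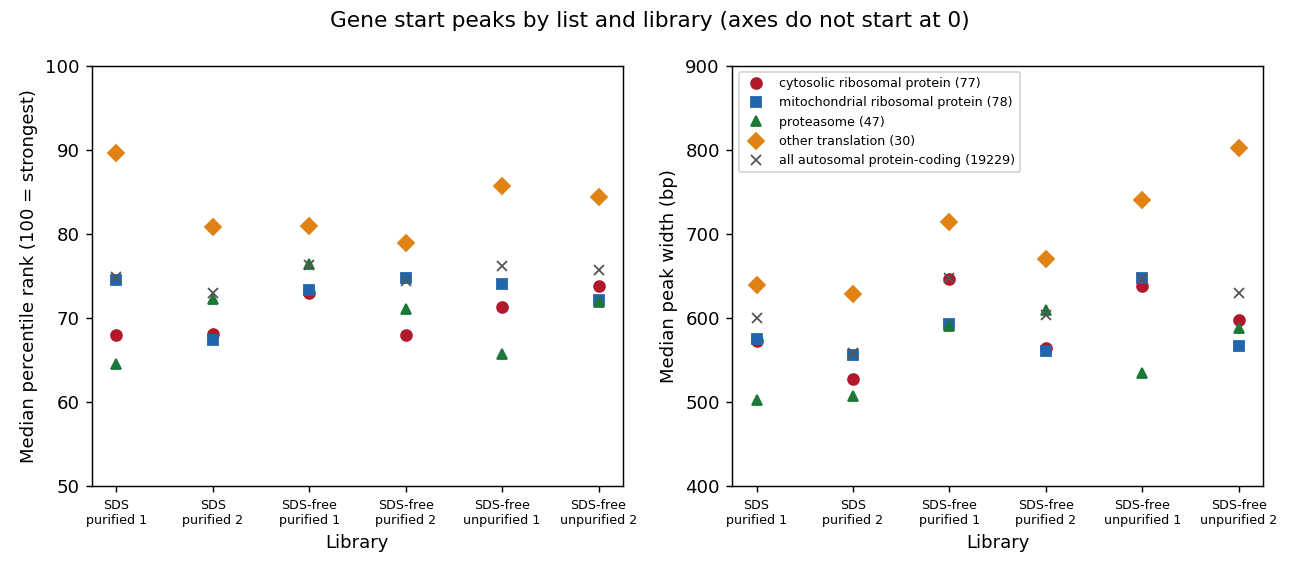
Median percentile rank (left, 100 the strongest) and median width in bp (right) of gene start peaks in each of the 6 libraries for the 5 gene lists; each symbol is 1 library and both axes are cut above 0. The ribosomal protein genes lie at or below all genes in rank and width in every library, and the other translation genes above them.

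The highest-ranked members had strong peaks in all 6 libraries. RPSA, a 40S protein also known as the laminin receptor precursor, ranked 95.2 and 98.1 with SDS, 98.2 and 97.6 in the SDS-free purified libraries and 98.4 and 97.2 in the unpurified ones. RPL15, a 60S core protein, ranked 97.7 and 96.5, 97.8 and 98.9, and 97.8 and 96.0 in the same order. RPS12, on the head of the 40S, had the highest summits as a mean over the 6 libraries, with 92 and 77, 86 and 82, and 92 and 85 reads.

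RPL37 had 76 and 68, 87 and 61, and 70 and 87 summit reads, and RPL34, another 60S protein, had 72 and 52, 69 and 60, and 81 and 64. RPS3A, a 40S protein, had a mean rank of 93.9. The lowest rank of these 6 members in any library was 89.7 (RPS3A, SDS replicate 1). Measured at the canonical start, 11 members had a mean rank of at least 90, and RPS29, a small zinc-finger protein of the 40S, joined them with 68 and 70, 80 and 67, and 78 and 90 summit reads. Among these 11 the largest SD of the rank over libraries was 3.66.

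The weakest members ranked in the lower part of the lists. RPL38, a 60S protein linked to the translation of Hox mRNAs, had the lowest mean rank of the members called in all 6, at 34.9, with 30.6 and 45.5, 52.0 and 55.6, and 3.26 and 22.5 in the order above. RPS27, a zinc-finger protein of the 40S, had a mean rank of 37.3 and 15 to 22 summit reads. The other low ranks were those of RPL32 (36.8) and RPL23A (42.3) of the 60S, and RPS18 (41.1) and RPS15A (45.0) of the 40S. At the canonical start the 11 members with a mean rank under 50 had rank SDs of 10.3 to 25.7. A percentile cannot pass 100, and in summit reads RPL37 had 74.8 ± 10.6 and RPL38 17.0 ± 2.19 (SD, n = 6 libraries). The summits of the 11 members with a mean rank under 50 held 11 to 31 reads, which spanned the library medians of 20 to 22 reads over all peaks.

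Widths also differed widely between members. RPL7, a 60S protein, had the widest mean peak at its gene start, 1307 bp, followed by RPS12 with 988 bp and RPL15 with 920 bp. RDH10 starts within 2 kb of the gene record start of RPL7, and SLC18B1 within 2 kb of that of RPS12. Whether these neighbours share the peaks was not tested. The RPS12 peak measured 811 and 747, 1412 and 772, and 1241 and 947 bp, so the widths of 1 member spread within a protocol as well as between them. The narrowest peaks of members called in all 6 were those of RPL38 (346 bp), RPS27 (359 bp) and RPS15A (382 bp), close to the median of 377 to 419 bp over all peaks of a library.

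No difference between protocols passed its test. The mean of the median widths was 550 ± 32.2 bp for SDS, 606 ± 57.3 bp for SDS-free purified and 618 ± 28.3 bp for SDS-free unpurified (SD, n = 2). The unpurified libraries did not overlap the SDS libraries in width (68.3 bp higher) or in rank (72.6 against 68.0), and each exact permutation test gave p = 0.333, which is the smallest that 2 libraries against 2 allow. Against SDS the share with a peak differed by −1.95 points in the SDS-free purified libraries and by −1.3 points in the unpurified ones (exact permutation p = 1 for each, n = 2). All 12 adjusted p-values were 1, and since 2 libraries against 4 cannot go below 0.133, this design could not have passed 0.05. Over all genes the median width was likewise 580 bp with SDS, 626 bp SDS-free purified and 639 bp unpurified.

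A few calls split by protocol, with a peak in each replicate of one and in no replicate of another. RPS3, a 40S protein at the mRNA entry channel, had a peak in both SDS libraries (17 and 15 summit reads) and in none of the other 4. RPL12, at the base of the ribosomal stalk, had none with SDS and 18 and 21, and 28 and 20, summit reads in the SDS-free libraries. RPL11, which with RPL5 binds 5S rRNA and the p53 regulator MDM2, was called in both SDS-free purified libraries (11 and 12 reads) and in neither unpurified one, and also in 1 SDS library (17 reads).

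RPL41, the shortest ribosomal protein, was called in both unpurified libraries (29 and 22 reads) and in neither SDS-free purified one, and in 1 SDS library (22 reads). That is 1 member for each of the 6 ordered pairs of protocols, where 0.276% to 1.00% of all genes had such a pattern. The summits of RPS3 and RPL11 held 11 to 17 reads and those of RPL12 and RPL41 18 to 29. The library medians over all peaks were 20 to 22 reads, and whether depth set these calls was not tested.

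Other members called in some libraries were weak wherever they were called. RPS27L, a p53-induced paralog of RPS27, was called in 5 libraries, as were RPS10, a 40S protein (10 to 15 summit reads), and RPL7A, a 60S protein (12 to 19). RPL19, a 60S protein, was called in 4, with 13 to 16 reads. RPL29 was called in 3 libraries with 12 to 16 reads, and RPL17, near the exit of the peptide tunnel, in 2 with 14 reads each. None of these named members ranked above 49.9 in any library.

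The members with no peak at the start of the gene record in any library included RPL22, RPL39L, RPL10L, RPL4, RPL3L and RPL36. For 23 of the 77 members this start is more than 100 bp from the start of the canonical transcript, and for 8 more than 1000 bp. The canonical start of RPL22, a 60S protein, lies 9794 bp downstream of it, that of RPL4, which lines the peptide tunnel, 19677 bp, that of RPL36 15348 bp, and that of RPL39L 41412 bp.

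At the canonical start a peak was called in 70 and 70 members with SDS, 69 and 66 in the SDS-free purified libraries and 68 and 70 in the unpurified ones, where 50.8% and 49.3%, 52.9% and 49.7%, and 52.6% and 52.3% of all genes had one. There 60 members (77.9%) were called in all 6 libraries against 43.4% of all genes, 14 in 1 to 5 against 15%, and 3 in none against 41.6%. In all 6 libraries 8 members (10.4%) were among the strongest 10% of peaks there, against 7.81% of all genes.

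At that start RPL22 had a peak in all 6 libraries (28 to 45 summit reads, mean rank 85.4). RPL39L, the paralog of RPL39 used in male germ cells, also had one in all 6 (23 to 49 reads, mean rank 85.3). RPL4 had one in 5 libraries (14 to 19 reads) and RPL36 in 3 (19 to 24 reads). Conversely, the gene record starts of RPS29 and RPL6 lie near those of LRR1 and PTPN11, and the peak of RPS29 had a mean rank of 70.3 there and 96.8 at the canonical start. RPL6, a 60S protein, was called in 6 libraries at the first start and in 5 at the second, with mean ranks of 53.9 and 14.8.

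RPL10L and RPL3L had no peak at either start in any library. RPL10L is a testis-expressed retrogene copy of RPL10, and RPL3L is the striated-muscle paralog of RPL3.

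Measured from the canonical start, the accessible stretch of members lay mostly upstream. In each library the start was inside the peak in 64 to 68 members, and in these the peak ended at a median of 335 to 408 bp upstream and 148 to 205 bp downstream. Over all genes the medians were 323 to 348 bp upstream and 200 to 248 bp downstream. The peak reached farther upstream than downstream in 75.4% to 87.9% of members against 63.6% to 69.1% of all genes.

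The downstream reach was shorter in members than over all genes, by a mean difference of −44.9 bp (184 ± 22.1 against 229 ± 17.4 bp, SD, n = 6 libraries), in 6 of 6 libraries (exact permutation p = 0.0312, adjusted p = 0.0417). The share longer upstream was 17.1 points higher (83.2% ± 4.77 against 66.1% ± 1.97), also in 6 of 6 (exact permutation p = 0.0312, adjusted p = 0.0417, n = 6). The upstream reach differed by 32.4 bp, with 5 of 6 libraries higher (exact permutation p = 0.0625, adjusted p = 0.0682, n = 6). Against the mitochondrial ribosomal protein genes the downstream reach differed by −36.8 bp and the share longer upstream by 13.8 points, and against the proteasome genes by −16.6 bp and 12.4 points (each exact permutation p = 0.0312, adjusted p = 0.0417, n = 6).

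Among the other translation genes 85.6% ± 10.1 of peaks were longer upstream (members minus list −2.39 points, exact permutation p = 0.688, n = 6), and their peaks reached farther upstream (members minus list −99.1 bp, exact permutation p = 0.0312, adjusted p = 0.0417, n = 6). These extents were chosen for comparison after the data were seen, and the adjustment covers their own family of 12. Without genes that have another coding start nearby, the share longer upstream stayed higher than over all genes by 16.0 points and the downstream reach shorter by a difference of −31.3 bp, but neither passed (adjusted p of 0.0938 for each by the same exact permutation test). There the downstream reach against proteasome genes turned to 9.08 bp and the share difference fell to 6.11 points.

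**Figure D4:**
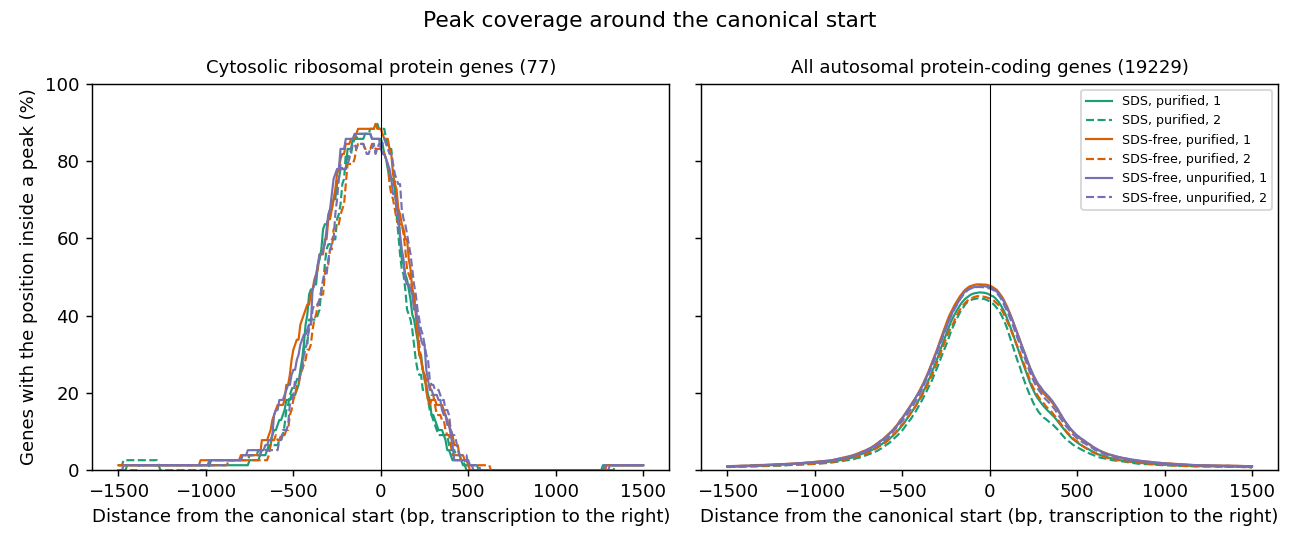
Share of genes (y axis, percent) for which a position at a given distance from the canonical start (x axis, bp, transcription to the right) lies inside a peak, for the 77 ribosomal protein genes (left) and all 19229 genes (right); each line is 1 of the 6 libraries, solid for replicate 1 and dashed for replicate 2. At 500 bp upstream 18.2% to 31.2% of members are covered, and at 500 bp downstream 0 to 2.60%.

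Position by position, 84.4% to 88.3% of members were inside a peak at 100 bp upstream, against 44.2% to 47.7% of all genes. At 500 bp upstream the values were 18.2% to 31.2% and 10.3% to 13.5%. At 500 bp downstream the order turned, with 0 to 2.60% of members (at most 2 genes) and 5.95% to 9.04% of all genes. Each library showed this, and the 3 protocols overlapped.

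**Figure D5:**
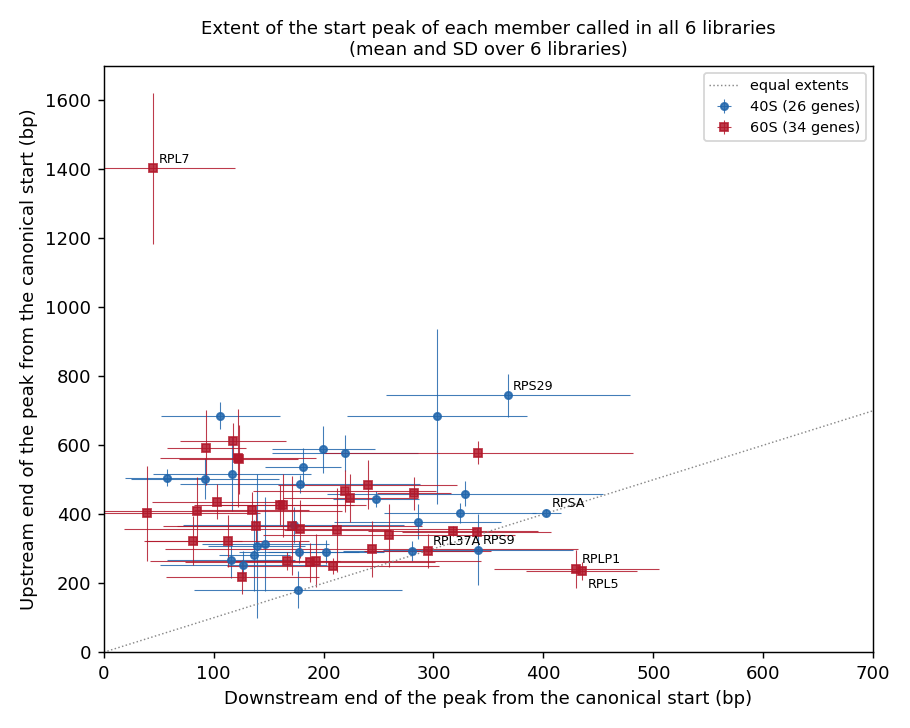
Upstream end (y axis, bp) against downstream end (x axis, bp) of the peak at the canonical start for the 60 ribosomal protein genes called in all 6 libraries; points are means and bars SDs over the 6 libraries, and the dotted line marks equal extents. RPL7 stands apart at 1403 bp upstream, and 4 members (RPL5, RPLP1, RPS9 and RPL37A) reach farther downstream than upstream.

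Single members departed from this shape. At the canonical start, RPL7 reached a mean of 1403 bp upstream and 45.0 bp downstream, and its summit lay at −669 and −211, −664 and −397, and −784 and −639 bp from the start. RPS29 reached 744 bp upstream and RPS12 684 bp. With RDH10 starting near the gene record of RPL7 and SLC18B1 near that of RPS12, these peaks may include a neighbour's start, which was not tested. RPL5, the 5S rRNA partner of RPL11, reached 234 bp upstream and 435 bp downstream, and RPLP1, a protein of the acidic stalk, 242 and 430 bp.

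Summits of the 60 members called in all 6 at this start lay on average between −561 bp, upstream, and 20.3 bp, with a median of −102 bp. Measured from the gene record, the summits farthest upstream were those of RPS19, mutated in Diamond-Blackfan anaemia (−363 bp), RPLP2, another stalk protein (−272 bp), and RPL26, a 60S protein that binds p53 mRNA (−246 bp). The 2 farthest downstream belonged to RPL7 and RPL30, whose records start 2156 and 924 bp before the canonical start. Another coding gene starts within 2 kb of the gene record starts of RPLP2 (PIDD1), RPL26 and RPL7 (RDH10).

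Peak strength among members was also set beside promoter sequence. The 55 members with the pyrimidine run had a median of mean ranks of 72.0 (46 called in all 6), and the 22 without it 47.9 over the 19 with a peak (14 called in all 6). Members with CCGGAAG had a median of 71.0 and those without it 67.2, and with AAGATGG 50.3 against 69.1. These are descriptions without a test, over members that differ in other ways too. Across members with a peak, Spearman's rho between promoter GC content and rank was 0.0474 to 0.183 by library, and across all genes with a peak −0.0232 to −0.000561.

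The share with a peak was split by GC content in the same way. Of all promoters at or below the members' median GC of 60%, 31.0% to 33.9% had a peak at the canonical start, and above it 60.5% to 64.7%. Of members, 82.5% to 97.5% had one at or below that value (33 to 39 of 40) and 83.8% to 89.2% above it (31 to 33 of 37). The libraries are the same for both, and the difference between these splits was not tested.

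The libraries held 30136 to 38023 peaks, and the summit reads and the local background, solved from the fold enrichment and p-value of each peak, gave a lowest background of 1.51 to 1.86 reads, which scales with depth. Of the B-cell marker genes, MS4A1 had a peak at its start in all 6 libraries, CD79A in 4, PAX5 and CD79B in 1 each and CD22 in none. All 4 erythroid and 3 of 4 T-cell genes had no peak in any library, CD8A had one in all 6 at the start of the gene record and in none at the canonical start, and of the 4 myeloid genes only CD14 had one, in 4 libraries.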

How the data were processed

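The 6 peak lists are of bulk ATAC-seq on fixed GM12878. Reads were trimmed and aligned to hg19 with Bowtie2 2.1.0 by the authors, who dropped pairs of low mapping quality, duplicates (Picard 1.79) and mitochondrial fragments and then ran MACS2 for narrow peaks at q 0.01. For MACS2 the version is not given in the sources used here. According to its methods the study merged reads by condition, but there is 1 list per library here, and each counted as 1 replicate. The deposited lists give positions, a fold enrichment at the summit (a ratio to the local background), −log10 p and −log10 q, and a score that is 10 times −log10 q without decimals. Labels and the legend of a supplement gave the protocols.

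Gene starts were the 5′ ends of GENCODE version 44 gene records on GRCh37, the same build as hg19. A gene was called where any base of a peak lay within 1 kb, and the nearest peak gave its values. Summit reads were solved from fold and p, exactly within 0.001 for 100% of peaks, and cover counting error only. Differences from other lists were tested with exact two-sided sign-change permutations over 6 libraries, and protocols with exact two-sided permutations, each adjusted over 12 tests by Benjamini-Hochberg. Named members were those not called everywhere, the 3 highest and lowest of each subunit by rank, the 3 widest and narrowest, the 3 with the farthest summit on each side, and those whose calls split by protocol. The sequences of RPS12, RPL37, RPS27, RPL38 and RPL32, the extents around the canonical start, and RPS29, RPL5, RPLP1 and RPL6 as named for that start were chosen after their values were seen. Members and lists were chosen with earlier results of these data known. Second copies (at least 1000 bp at 98% identity) were found with blastn 2.17.0. Scripts were tested on simulated data and ran under Python 3.11.15 with pandas 2.3.3, SciPy 1.17.1, matplotlib 3.10.9 and NumPy 2.4.6. Alternatives were other windows, thresholds, starts, overlap rules, members and left-out libraries. The single-cell data were not analysed, and a few genes are not reported here.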

Additional observations from a re-analysis of the deposited data

How the results depend on the processing

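The 36 differences were recomputed under up to 17 settings, giving 504 values, of which 393 kept direction and side of the 0.05 threshold. With 500 bp each side, summits within 1 kb and the canonical start (chosen after seeing the data), the rank difference from proteasome genes was −1.69, −0.992 and −0.774. With every transcript start it was −0.496, and the shares differed by −0.166 from proteasome and −6.41 from other translation genes, the latter by −7.27 at the canonical start. Unpurified minus SDS-free purified share was −1.95 at 2 kb each side, −1.95 with −log10 q of at least 5, −3.25 with equal peak numbers and −1.89 without genes near another coding start. SDS-free purified minus SDS was 0.649 in share with equal peak numbers, and −2.10 in rank without genes near another start, where the share difference from mitochondrial ribosomal protein genes was −0.129 and the proteasome rank difference −1.25.

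Without the 4 paralogs ending in L, 8 differences passed the threshold (exact permutation tests, adjusted p = 0.0469): share 40.3, width −23.6 and rank −4.37 from all genes, share 7.19 from mitochondrial ribosomal protein and 10.1 from proteasome genes, and share 16.0, width −108 and rank −12.7 from other translation genes. Without members whose start window has a near-identical second copy they were 37.9, −23.6, −4.73, 4.78, 7.68, 13.6, −108 and −13.1. The mitochondrial share difference, then positive in 6 of 6 libraries, lowered the adjustment. Both settings took out members without a peak, while the comparison lists kept all their genes. Members with no peak in any library were 7 of 77 in the main setting, 4 of 73 without the paralogs and 6 of 76 without second copies. The higher shares thus follow from the removal, and the passing of the threshold adds no support.

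Without genes near another start, no extent passed: downstream reach and share longer upstream differed by −31.3 bp and 16.0 points from all genes, and by −26.9 bp and 15.3 from mitochondrial ribosomal protein genes (upstream reach 19.4 bp). From proteasome genes upstream reach, downstream reach and share differed by 13.9 bp, 9.08 bp and 6.11, and from other translation genes upstream and downstream reach by −109 and 12.5 bp. With −log10 q of at least 5, upstream reach passed against all genes (34.4 bp) and downstream reach did not against proteasome genes (−12.9 bp). Without paralogs ending in L, upstream reach against proteasome genes (36.7 bp) did not.

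Leaving out each library in turn, no exact permutation test of 5 libraries can go below p = 0.0625, so no extent passed. Downstream reach ranged from −48.3 to −42.9 bp against all genes, −40.3 to −32.4 against mitochondrial ribosomal protein genes and −19.5 to −12.1 against proteasome genes. Share longer upstream ranged from 16.2 to 18.6, 12.4 to 15.4 and 10.9 to 13.7 points. Upstream reach ranged from 32.5 to 45.4 bp (mitochondrial), 30.9 to 47.8 (proteasome) and −109 to −91.5 (other translation), where share longer upstream ranged from −5.67 to 1.28. Signs turned for proteasome rank (−1.07 to 0.886), mitochondrial width (−1.3 to 15), SDS-free purified minus SDS rank (−0.0651 to 4.90) and share (−4.55 to 0.649), unpurified minus SDS share (−3.25 to 0.649), and unpurified minus SDS-free purified share (−1.95 to 3.25), width (−28.0 to 53.0) and rank (−0.342 to 4.62).

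Rank deviations of same-numbered libraries correlated at 0.0842, −0.155 and −0.0714 over 59 members. Such correlations of ranks cannot show whether libraries of the same number share an origin. With the replicate block the unpurified minus SDS width difference was 68.3 bp (exact permutation p = 0.5), and no call changed.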

Other observations

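Of the ribosomal protein genes outside the rule that were examined, all but RPL10 had start peaks in most libraries, with ranks within the range of members. On the X chromosome, RPS4X, RPL36A and RPL39 were called in all 6 libraries at the gene record's start, with ranks of 78.0 to 88.2, 63.0 to 88.2 and 52.4 to 71.7. RPL10, a 60S protein near the catalytic centre, was called in none at that start. The canonical starts of these X-linked genes were not examined, so a peak at that of RPL10 may have been missed. FAU, which encodes a fusion of a ribosomal protein with a ubiquitin-like part, was called in 5 libraries (ranks 9.76 to 50.2). Among paralogs, RPL36AL (88.7 to 97.4), RPL22L1 (89.4 to 95.3) and RPL26L1 (24.8 to 87.7) were called in all 6 and RPL7L1 (1.31 to 65.8) in 5.

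Away from both starts by more than 1 kb, 15 of the 77 members had a peak elsewhere in the gene in at least 1 library, and 5 (RPL22, RPL31, RPL27A, RPL41 and RPL36) had one in all 6. The other 62 had none. This was not counted over all autosomal protein-coding genes, so these numbers show nothing particular to members. The median gene record was 5548 bp long. That of RPL41 was 1378 bp, with the starts of ESYT1 and ZC3H10 nearby, and that of RPL36 begins 15348 bp before its canonical start. Whether these peaks belong to other genes was not tested. At the canonical start 56 of the 60 members called in all 6 libraries had a mean peak end farther upstream than downstream.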
